A study of Mus musculus with 35 samples.

Results

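The extracellular matrix genes described here are 39 of the 55421 genes in the count table. They were taken by symbol from a list of secreted matrix glycoproteins, proteoglycans and remodelling enzymes. The rule itself uses no measured value, but the list was chosen with earlier results of these data known. By role they are 9 adhesive or matricellular glycoproteins, 5 lysyl oxidases, 8 proteins of elastic fibres and microfibrils, 4 small leucine-rich proteoglycans, 7 basement membrane proteins, and 6 proteases and inhibitors. Collagens were not included. The study followed interscapular brown adipose tissue (iBAT), the main heat-producing fat depot of the mouse, through cold exposure. RNA from whole iBAT was sequenced in 35 male C57BL/6J mice of 9 to 10 weeks of age, of which 5 were room temperature controls and the others spent 6 hours or 1, 2, 3, 4 or 5 days in the cold, with 5 per duration. Controls stayed in the colony at 24 °C, and cold-exposed mice lived in an incubator at 6 °C, alone in static cages and without nesting material, so the effects of temperature and of housing cannot be told apart. Each mouse gave 1 library, and the same 5 control mice serve all 6 comparisons with room temperature.

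Matrix proteins are secreted and assembled outside the cell, mostly by fibroblast-like stromal cells, with contributions from endothelial cells, mural cells and adipocytes. Tropoelastin and fibrillin are laid down as elastic fibres and microfibrils, lysyl oxidases cross-link elastin and collagen, and small leucine-rich proteoglycans bind collagen fibrils. Laminins, nidogens and perlecan make up the basement membrane that surrounds each adipocyte and each capillary, while metalloproteases cut these proteins and are held back by TIMPs, their tissue inhibitors. In a whole-tissue library, fewer cells of a type and less RNA per cell cannot be told apart.

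Libraries held between 3846016 and 6047247 counts on genes (median 4902083), and 1 read in the smallest corresponds to 0.260 counts per 1000000 (CPM). The 39 matrix genes took between 0.141% and 0.292% of a library. The kit reads the 3′ end of each polyadenylated transcript, so levels are given as TMM-normalized CPM without division by length, and differences are log2 fold changes between groups. Each library had a median Pearson r between 0.940 and 0.969 with the other libraries of its group over 12077 genes, and no 2 held the same counts. Library 1 of the 2 day group had the lowest r. Mitochondrial genes took 33.6% to 46.2% of a library and the single gene Gm42418 7.81% to 16.3%, and both shares differed between mice of one group. Ucp1, the uncoupling protein that defines brown adipocytes, stood at 1912 ± 611 CPM (SD, n = 5) in controls and between 5531 and 7819 CPM on average in the cold groups. Of the 39 genes, 15 share exonic bases with a gene on the opposite strand, among them Svep1, Loxl3, Eln, Fbn1, Lox, Nid1 and Timp3, and the strand setting of the counting is not given in the sources used here.

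Promoter sequence is shown for 3 of these genes, Adamts1, Lamb1 and Timp3, because their RNA was already higher after 6 hours and moved differently later on. Each run is RefSeq sequence of GRCm38.p6, read 5′ to 3′ on the gene's own strand, of at most 250 bases before the RefSeq start site and ending before the annotated gene body. The windows are chr16:85803114-85803363 on the minus strand for Adamts1, chr12:31265043-31265233 on the plus strand for Lamb1 and chr10:86300162-86300371 on the plus strand for Timp3. Capitals mark the half-site of the cAMP response element (TGACG) or the TATA box (TATAAA), searched on both strands.
Adamts1: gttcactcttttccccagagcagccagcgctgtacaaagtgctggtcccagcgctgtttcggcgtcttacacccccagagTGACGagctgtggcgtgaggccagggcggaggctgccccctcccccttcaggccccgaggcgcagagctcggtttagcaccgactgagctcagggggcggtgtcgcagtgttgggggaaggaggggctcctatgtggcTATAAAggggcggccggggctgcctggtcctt
Lamb1: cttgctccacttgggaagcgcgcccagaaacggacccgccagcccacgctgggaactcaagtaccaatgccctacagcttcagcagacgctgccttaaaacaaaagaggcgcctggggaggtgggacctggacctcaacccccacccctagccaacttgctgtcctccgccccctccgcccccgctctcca
Timp3: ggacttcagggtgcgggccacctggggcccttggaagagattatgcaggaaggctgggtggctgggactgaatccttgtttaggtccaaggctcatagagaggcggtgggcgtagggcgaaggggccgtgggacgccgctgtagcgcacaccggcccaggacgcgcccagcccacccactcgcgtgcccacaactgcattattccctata
The Adamts1 window holds a half-site 170 bases and a TATA box 32 bases before the start site, and neither motif was found in the windows of Lamb1 and Timp3. Promoter windows of 300 bases were at hand for 23 of the 39 genes (28 windows) and for 32851 start sites in all. The half-site, whose letters also form part of the full element, occurred in 5 of the 28 windows and in 20.8% of all windows. Those 5 belong to 4 of the 23 genes (Adamts1, Fbln5, Loxl4 and Timp1). The full cAMP response element (TGACGTCA) was in none of the 28 windows and in 1.79% of all. TATA boxes were found in 6 of the 28 windows, from 5 genes (Adamts1, Postn, Svep1, Thbs2 and Tnc), against 13.6% of all windows. The AP-1 motif TGANTCA was in 1 of the 28 (Tnxb) against 7.81%. The TEAD motif CATTCC was in 4 of the 28, from 4 genes (Mfap2, Nid1, Svep1 and Timp1), against 14.7%.

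Matrix genes moved in both directions, and a majority differed among the groups, as did a majority of all genes. Over all 7 groups, 24 of the 34 genes that could be tested, or 70.6%, differed (edgeR quasi-likelihood F test, Benjamini-Hochberg adjusted p below 0.05), against 59.8% of the 12077 genes tested, and Thbs2, Loxl4, Mfap2, Mfap4 and Fmod had too few counts to test. Svep1 and Timp3 fell, Loxl1 and Eln rose and stayed higher, Lamb1 and Adamts1 rose early, and a broader set including lysyl oxidases, Sparc, Bgn and Nid1 was higher after 3 days. The 4 lysyl oxidases tested all differed among the groups, as did the 3 small leucine-rich proteoglycans, 5 of 7 basement membrane genes, 4 of 6 elastic fibre genes, 4 of 6 proteases and inhibitors, and 4 of 8 adhesive glycoproteins. These counts include Timp1 and Thbs1, which passed the filter only through cold-exposed mice with high levels.

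The count of matrix genes called higher was largest after 3 days. After 6 hours, 5 genes were higher and 5 lower of 30 tested, where 21.8% of all genes tested were higher and 21.1% lower. After 1 day the counts were 5 higher and 6 lower of 31 (18.9% and 17.8% of all genes), and after 2 days 6 higher and 5 lower of 31 (16.4% and 14.6%). After 3 days, 15 of 32 were higher and 4 lower, against 18.4% and 15.5% of all genes. After 4 days, 10 were higher and 4 lower of 32 (19.2% and 18.8%), and after 5 days 7 higher and 5 lower of 32 (20.2% and 18.4%). The shares at 6 hours, 1 day, 2 days and 5 days were thus close to those over all genes, and the share higher was above it after 3 and 4 days. The excess at 4 days depends on the setting. With scaling by library size alone 5 of 32 were higher then, against 1421 of 11048 genes. With all 7 groups in one fit 5 of 34 were higher, against 2197 of 12077 genes.

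The median log2 fold change of the matrix genes tested followed the same course, at -0.09 after 6 hours, -0.23 after 1 day, 0.10 after 2 days, 0.35 at 3 days, 0.20 at 4 days and 0.06 at 5 days, while the median over all genes stayed between -0.03 and -0.01. Scaling by library size alone, without TMM factors, moved the median of all genes to between -0.25 and -0.15 in these 6 comparisons, for example from 2305 higher and 2234 lower genes to 1354 and 3397 after 6 hours. With that scaling the matrix genes called higher and lower numbered 3 and 9 after 6 hours, 4 and 11 after 1 day, 5 and 7 after 2 days, 9 and 5 at 3 days, 5 and 5 at 4 days, and 2 and 9 at 5 days, and no gene called in either direction changed sign. All genes called higher and lower then numbered 1145 and 3232 after 1 day and 914 and 2781 after 2 days. They were 1324 and 2442 at 3 days, 1421 and 2706 at 4 days, and 1184 and 3335 at 5 days.

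**Figure D1:**
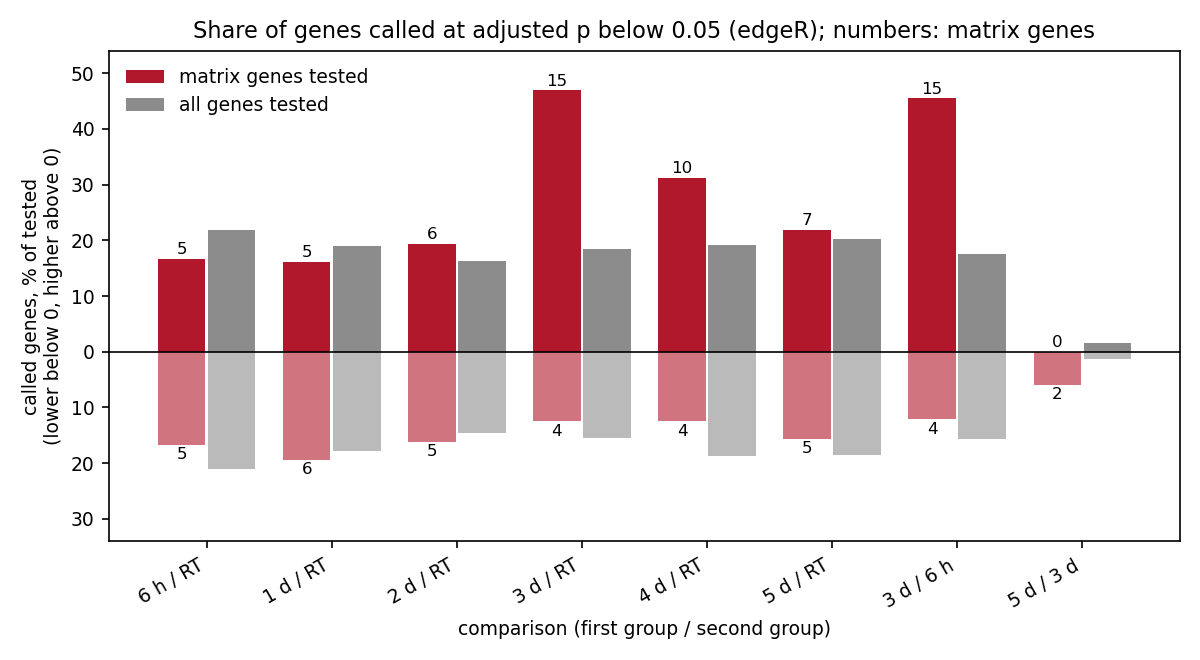
Percent of tested genes called higher (above 0) and lower (below 0) with edgeR (adjusted p below 0.05), for the matrix genes (red, with the number of genes) and for all genes tested (grey), in each of 8 comparisons. After 3 days 15 of 32 matrix genes were higher, against 18.4% of all genes, and between 3 and 5 days none was higher and 2 were lower.

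**Figure D2:**
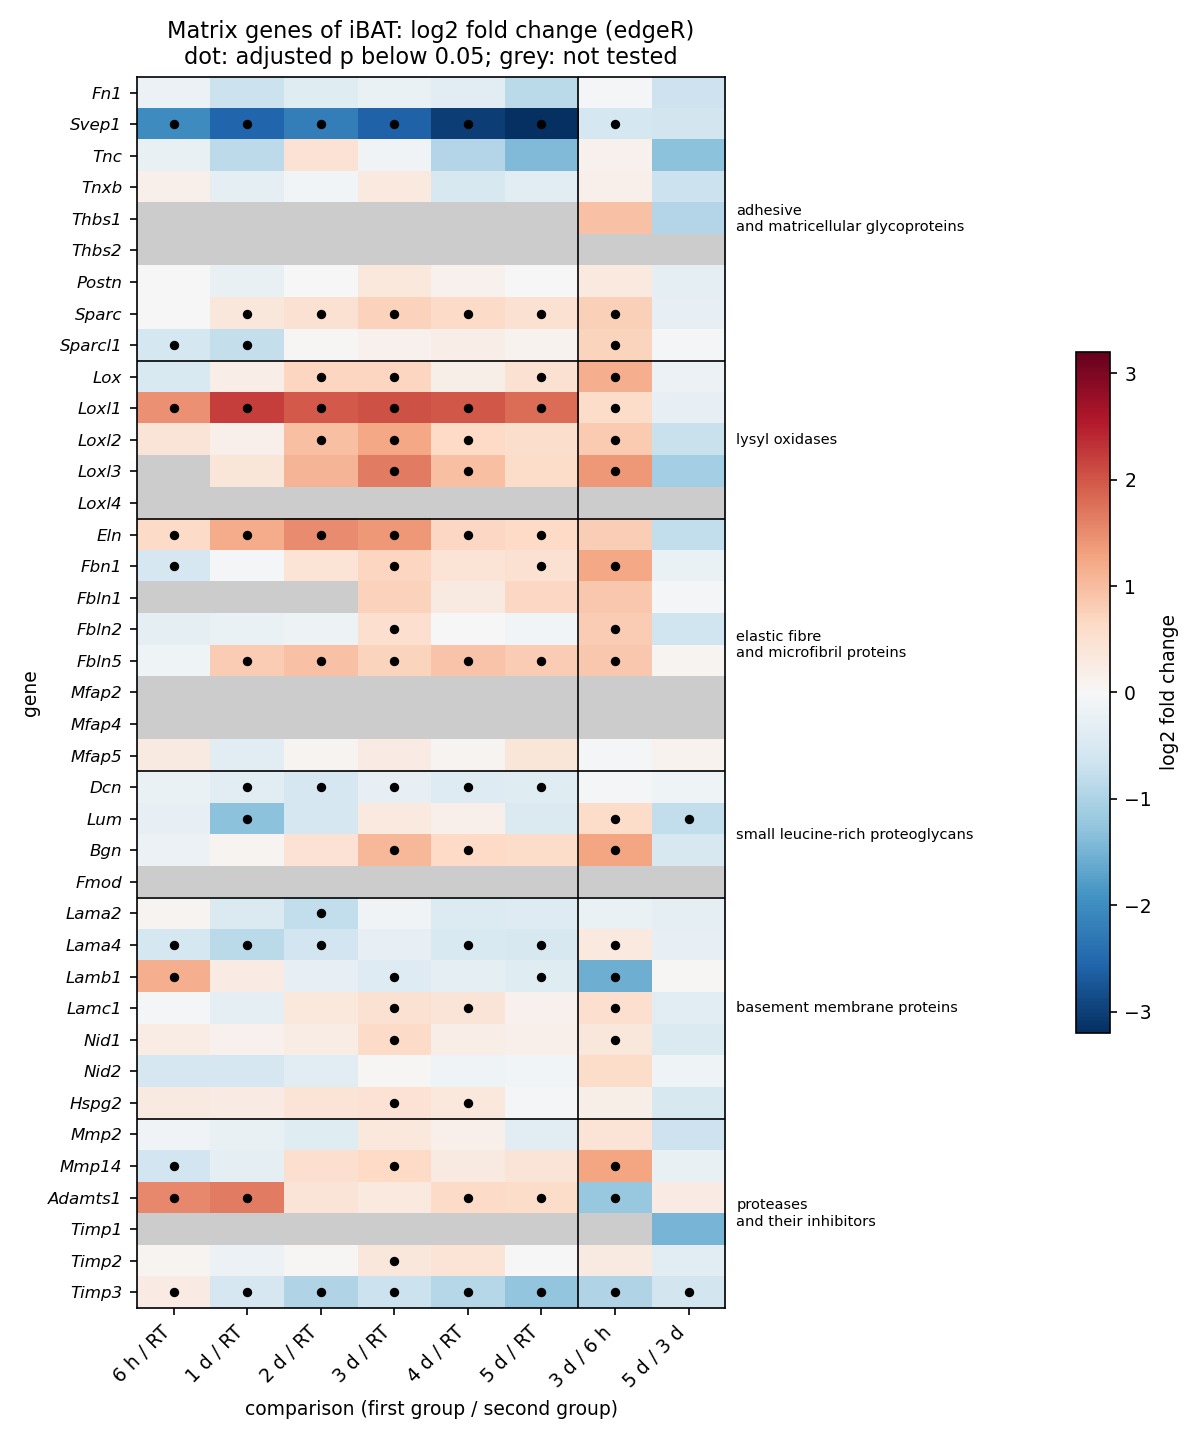
Fitted log2 fold changes of the 39 matrix genes (rows, by role) in 8 comparisons (columns), with RT for room temperature. Red is higher and blue lower in the first group, dots mark an adjusted p below 0.05 in edgeR, and grey cells were not tested. Svep1 is blue and Loxl1 red in all 6 comparisons with room temperature, and the columns for 3 days, against room temperature and against 6 hours, hold the most dots.

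Lysyl oxidases, the copper enzymes that oxidize lysines of elastin and collagen so that the chains cross-link, were called higher and never lower. Of the 4 tested, 1 of 3 was higher after 6 hours, 1 of 4 after 1 day, 3 of 4 after 2 days, all 4 after 3 days, 3 after 4 days and 2 after 5 days. The median log2 fold change of the group was 1.46 after 3 days. The summed level of 3 stromal cell markers was then also higher, at 89.7 to 187 CPM against 59.1 to 77.4 CPM in controls. Only 1 of the 3, Ly6a, was called higher, and the part of stromal cells was not tested.

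Loxl1, the family member needed for elastic fibre upkeep (ENSMUSG00000032334, chr9:58287738-58313186, minus strand), was higher at every duration. Its levels in the 5 controls were 26.4, 6.97, 16.3, 10.2 and 7.78 CPM. They were 43.7, 35.8, 42.0, 32.5 and 34.2 CPM after 6 hours and 59.8, 72.7, 59.3, 62.5 and 58.3 CPM after 1 day. All cold-exposed mice stood above every control, although control 1 was well above the other controls. Later levels were 53.4, 49.9, 52.0, 54.1 and 53.4 CPM after 2 days, 60.7, 41.4, 64.9, 51.6 and 56.8 after 3 days, 59.1, 64.4, 53.5, 38.1 and 50.5 after 4 days and 56.3, 34.7, 44.9, 42.2 and 56.6 after 5 days. No mouse of these 4 groups overlapped with controls either. The fold against controls was 2.75 after 6 hours and 4.64 after 1 day. Log2 fold changes (± SE) were 1.46 ± 0.33 after 6 hours (adjusted p = 0.0058), 2.21 ± 0.32 after 1 day (adjusted p = 0.00038) and 1.95 ± 0.30 after 2 days (adjusted p = 0.00058), followed by 2.04 ± 0.35 after 3 days (adjusted p = 0.0018), 1.98 ± 0.35 after 4 days (adjusted p = 0.0021) and 1.80 ± 0.35 after 5 days (adjusted p = 0.0029).

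Lox, the founding member of the family, rose later. Controls had 9.64, 7.75, 13.9, 10.7 and 8.50 CPM, mice after 6 hours 8.12, 12.0, 6.71, 3.30 and 6.29 CPM and mice after 1 day 12.6, 9.83, 15.8, 12.8 and 7.58 CPM, and these groups overlapped. After 2 days the levels were 14.2, 19.7, 14.7, 17.6 and 16.4 CPM and after 3 days 16.3, 16.8, 15.7, 14.8 and 16.4 CPM, above every control. After 4 days they were 10.3, 12.4, 11.6, 10.2 and 13.0 CPM and after 5 days 12.7, 11.3, 16.8, 18.3 and 12.5 CPM, overlapping with controls again. The log2 fold change was 0.70 ± 0.18 after 2 days (adjusted p = 0.0054), 0.68 ± 0.17 after 3 days (adjusted p = 0.0034) and 0.50 ± 0.19 after 5 days (adjusted p = 0.037). The call at 5 days was lost without control replicate 1, 2, 4 or 5 or 5 day replicate 3 or 4 (log2 fold change 0.40 to 0.52, adjusted p = 0.059 to 0.11).

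Loxl2 (ENSMUSG00000034205, chr14:69609068-69695834, plus strand), which cross-links basement membrane collagen among other substrates, had 7.32, 6.58, 8.26, 8.21 and 5.07 CPM in controls, 11.8, 8.32, 10.5, 9.20 and 8.69 after 6 hours and 6.87, 11.4, 6.62, 3.32 and 11.7 after 1 day. Levels reached 18.8, 16.2, 14.0, 6.30 and 12.7 CPM after 2 days and 15.6, 7.80, 23.5, 19.5 and 17.2 CPM after 3 days. After 4 days they were 8.13, 11.5, 14.5, 8.42 and 12.6 CPM and after 5 days 11.2, 7.38, 8.71, 7.07 and 17.9 CPM. All mice at 6 hours were above the controls, without passing the test (log2 fold change 0.42 ± 0.19, adjusted p = 0.073), and the later groups overlapped with controls. The gene was higher by 0.95 ± 0.24 after 2 days (adjusted p = 0.0053), 1.25 ± 0.24 after 3 days (adjusted p = 0.00043) and 0.64 ± 0.20 after 4 days (adjusted p = 0.016) on the log2 scale. At 4 days the call was lost without control replicate 5 or 4 day replicate 3 (log2 fold change 0.52 to 0.54, adjusted p = 0.051 to 0.057).

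Loxl3, a further family member, was higher by 1.67 ± 0.33 after 3 days (adjusted p = 0.00047) and 0.97 ± 0.31 after 4 days (adjusted p = 0.018) on the log2 scale, and its call at 4 days was lost without control replicate 4 or 4 day replicate 2 (log2 fold change 0.86 to 0.89, adjusted p = 0.051 to 0.052). Its mean level was 2.06 ± 0.782 CPM (SD, n = 5) in controls and 6.47 ± 2.58 CPM after 3 days. Loxl4 was near the limit of detection, with 0 to 10 counts per library and none in 17 of 35 mice.

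Among elastic fibre and microfibril genes, Eln, Fbln5, Fbn1 and Fbln2 were higher at one or more of the later durations. Of 5 tested after 6 hours, 1 was higher and 1 lower. After 1 day and after 2 days 2 of 5 were higher, after 3 days 4 of 6, after 4 days 2 of 6 and after 5 days 3 of 6, with none lower from 1 day on. The median log2 fold change of the group was 0.70 after 3 days.

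Eln (ENSMUSG00000029675, chr5:134702593-134747323, minus strand) encodes tropoelastin, the soluble precursor of elastin. Its levels were 9.64, 10.1, 5.22, 7.23 and 9.05 CPM in controls, 14.9, 16.9, 5.59, 15.6 and 12.0 CPM after 6 hours and 15.8, 24.0, 22.4, 19.4 and 13.3 CPM after 1 day. After 2 days they were 19.5, 32.2, 24.5, 13.7 and 29.7 CPM, and after 3 days 23.3, 11.7, 20.8, 17.7 and 36.0 CPM. They were 13.6, 10.2, 13.3, 14.4 and 13.9 CPM after 4 days and 11.8, 19.8, 10.9, 9.23 and 12.7 CPM after 5 days. All mice at 1, 2, 3 and 4 days stood above every control, and 4 of 5 did after 6 hours and after 5 days. The fold over controls was 2.85 after 2 days. Log2 fold changes were 0.62 ± 0.24 after 6 hours (adjusted p = 0.046), 1.19 ± 0.20 after 1 day (adjusted p = 7.9e-05) and 1.51 ± 0.23 after 2 days (adjusted p = 7.6e-05), then 1.40 ± 0.26 after 3 days (adjusted p = 0.00082), 0.65 ± 0.18 after 4 days (adjusted p = 0.0075) and 0.63 ± 0.22 after 5 days (adjusted p = 0.025). The call at 6 hours was lost without control replicate 3, 4 or 5 or 6 hour replicate 1, 2, 4 or 5 (log2 fold change 0.51 to 0.67, adjusted p = 0.055 to 0.12), and that at 5 days without control replicate 3 or 4 or 5 day replicate 2 (log2 fold change 0.43 to 0.58, adjusted p = 0.064 to 0.11).

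Fbln5, a fibulin that ties tropoelastin to microfibrils and to cell surface integrins (ENSMUSG00000021186, chr12:101746565-101819055, minus strand), was not called after 6 hours and was higher from 1 day on. Controls had 6.17, 6.97, 8.05, 4.93 and 5.61 CPM and mice after 6 hours 5.24, 6.24, 6.49, 4.72 and 6.10 CPM. Levels were 11.3, 13.7, 11.5, 8.17 and 11.0 CPM after 1 day, 13.4, 12.1, 9.53, 10.5 and 15.3 after 2 days and 11.9, 5.95, 13.9, 11.6 and 8.22 after 3 days. They were 9.94, 12.9, 11.6, 12.0 and 13.5 CPM after 4 days and 11.2, 13.5, 7.84, 9.82 and 13.5 after 5 days. Groups at 1, 2 and 4 days did not overlap with controls. The log2 fold change was 0.82 ± 0.19 after 1 day (adjusted p = 0.0019), 0.93 ± 0.19 after 2 days (adjusted p = 0.0013) and 0.72 ± 0.23 after 3 days (adjusted p = 0.018), and 0.92 ± 0.18 after 4 days (adjusted p = 0.00035) and 0.82 ± 0.21 after 5 days (adjusted p = 0.003). The call at 3 days was lost without control replicate 4 or 3 day replicate 3 (log2 fold change 0.59 to 0.64, adjusted p = 0.056 to 0.065).

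Fbn1 encodes fibrillin-1, the backbone of microfibrils (ENSMUSG00000027204, chr2:125300594-125507993, minus strand), and it moved first down and then up. Its levels were 19.3, 13.7, 14.4, 10.7 and 10.9 CPM in controls and 9.17, 10.6, 11.6, 6.37 and 9.80 CPM after 6 hours. They were 13.7, 12.3, 11.8, 15.8 and 13.3 CPM after 1 day, 23.7, 26.4, 14.2, 13.1 and 15.9 after 2 days and 28.2, 12.1, 24.9, 23.9 and 20.8 after 3 days. After 4 days they were 19.9, 27.5, 15.2, 18.0 and 13.2 CPM and after 5 days 23.6, 19.5, 17.9, 14.5 and 21.5 CPM. Every cold group overlapped with controls. Log2 fold changes were -0.55 ± 0.19 after 6 hours (adjusted p = 0.025), 0.69 ± 0.21 after 3 days (adjusted p = 0.017) and 0.49 ± 0.17 after 5 days (adjusted p = 0.028). The call at 6 hours was lost without control replicate 1 or 6 hour replicate 4 (log2 fold change -0.42 to -0.39, adjusted p = 0.081 to 0.1) and that at 5 days without control replicate 4 or 5 or 5 day replicate 1 or 5 (log2 fold change 0.40 to 0.46, adjusted p = 0.059 to 0.099).

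Fbln2, another fibulin, was called at 3 days and at no other duration (log2 fold change 0.54 ± 0.17, adjusted p = 0.017), and that call was lost without control replicate 4 (log2 fold change 0.45, adjusted p = 0.06). Mean levels were 10.7 ± 1.85 CPM in controls and 15.4 ± 2.36 CPM after 3 days (SD, n = 5). Mfap5 and Fbln1, a microfibril-associated glycoprotein and a fibulin, were called at no duration, Fbln1 being tested from 3 days on, with ranges over the 35 mice of 3.90 to 18.5 CPM and 0.895 to 4.58 CPM. Mfap2 ranged from 0 to 2.67 CPM, and Mfap4 had at most 2 counts in any library and none in 30 of 35.

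Basement membrane genes did not move together. Laminins are trimers of an alpha, a beta and a gamma chain, and after 6 hours the beta chain gene Lamb1 was higher, the alpha chain gene Lama4 was lower and the gamma chain gene Lamc1 was not called. Of the 7 genes, 1 was higher and 1 lower after 6 hours, 1 was lower after 1 day, 2 were lower after 2 days, 3 were higher and 1 lower after 3 days, 2 were higher and 1 lower after 4 days, and 2 were lower after 5 days. Endothelial markers, whose cells make basement membrane, summed to 416 to 501 CPM after 6 hours against 240.1 to 299 CPM in controls. Of these 6 markers 2 were called higher and 1 lower at that time, and the part of endothelial cells was not tested.

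Lamb1 (ENSMUSG00000002900, chr12:31265234-31329644, plus strand) had the smallest p of the matrix genes tested after 6 hours. Levels were 109, 104, 127, 98.2 and 98.1 CPM in controls and 236, 259, 227, 216 and 279 CPM after 6 hours. After 1 day they were 168, 107, 97.0, 123 and 147 CPM and after 2 days 119.7, 90.4, 82.4, 68.8 and 88.5 CPM. Every mouse at 6 hours stood above every other mouse of the series, and the 1 and 2 day groups overlapped with controls. Levels were 84.5, 66.7, 87.0, 84.0 and 77.9 CPM after 3 days, 60.9, 89.5, 112, 94.4 and 81.9 after 4 days and 67.9, 101, 75.6, 85.4 and 85.1 after 5 days, with the 3 day mice all below the controls. The gene was 2.24-fold higher after 6 hours, and log2 fold changes were 1.16 ± 0.10 after 6 hours (adjusted p = 4.3e-09), -0.41 ± 0.11 after 3 days (adjusted p = 0.0048) and -0.38 ± 0.11 after 5 days (adjusted p = 0.01). Its promoter window held none of the motifs searched.

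Lama4, the alpha chain of the laminins of capillary and adipocyte basement membranes (ENSMUSG00000019846, chr10:38965515-39110188, plus strand), was lower at 5 of 6 durations. Controls had 85.4, 81.1, 67.2, 63.7 and 58.1 CPM, mice after 6 hours 61.0, 41.8, 51.4, 48.1 and 42.2 CPM and mice after 1 day 32.9, 37.0, 39.03, 44.7 and 42.7 CPM. The levels were 57.9, 52.4, 46.9, 37.8 and 36.3 CPM after 2 days and 63.2, 64.2, 57.3, 53.5 and 57.6 CPM after 3 days. Groups at 1 and 2 days lay wholly below the controls. After 4 days the levels were 41.6, 49.9, 58.6, 48.5 and 53.9 CPM and after 5 days 45.5, 61.7, 49.9, 51.7 and 41.4 CPM. The log2 fold change was -0.56 ± 0.12 after 6 hours (adjusted p = 0.00076), -0.86 ± 0.12 after 1 day (adjusted p = 1.7e-05) and -0.62 ± 0.14 after 2 days (adjusted p = 0.0028), and -0.50 ± 0.12 after 4 days (adjusted p = 0.0022) and -0.51 ± 0.12 after 5 days (adjusted p = 0.0021).

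Lamc1, the gamma chain found in most laminins (ENSMUSG00000026478, chr1:153218922-153332786, minus strand), had 49.3, 45.7, 57.2, 48.3 and 44.0 CPM in controls, 42.7, 49.2, 52.1, 55.2 and 39.4 after 6 hours and 35.8, 44.3, 34.0, 26.0 and 58.6 after 1 day. It had 81.4, 73.0, 51.1, 46.7 and 56.5 CPM after 2 days and 74.0, 56.4, 77.6, 79.5 and 52.9 CPM after 3 days. Levels were 65.9, 70.6, 77.9, 56.3 and 55.2 CPM after 4 days and 56.9, 57.3, 54.7, 46.4 and 56.2 CPM after 5 days. At 3 and at 4 days 3 of 5 mice were above the control range, and the gene was higher by 0.49 ± 0.12 after 3 days (adjusted p = 0.0045) and 0.41 ± 0.12 after 4 days (adjusted p = 0.0071) on the log2 scale. Both calls were lost with scaling by library size alone (log2 fold change 0.36, adjusted p = 0.055 after 3 days and log2 fold change 0.29, adjusted p = 0.099 after 4 days).

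Nid1, nidogen-1, which links laminin to the collagen network, was higher after 3 days alone among the comparisons with controls (log2 fold change 0.60 ± 0.11, adjusted p = 0.00024), at 71.7 ± 7.14 CPM against 47.4 ± 5.84 CPM (SD, n = 5). Hspg2, the heparan sulfate proteoglycan perlecan, was higher by 0.47 ± 0.10 after 3 days (adjusted p = 0.0015) and 0.34 ± 0.11 after 4 days (adjusted p = 0.021) on the log2 scale, and the call at 4 days was lost without 4 day replicate 3 (log2 fold change 0.25, adjusted p = 0.079). Lama2, the alpha chain best known from muscle basement membrane, was lower after 2 days (-0.78 ± 0.26 on the log2 scale, adjusted p = 0.026), a call lost without control replicate 2 or 3 or 2 day replicate 1 or 3 (log2 fold change -0.76 to -0.62, adjusted p = 0.057 to 0.077). Nid2 was called at no duration and ranged from 1.31 to 8.29 CPM.

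Adhesive and matricellular glycoproteins held both the largest fold decrease called among the matrix genes, that of Svep1, and a rise that lasted to 5 days, that of Sparc. Among the 7 tested against controls, 2 were lower after 6 hours, 1 was higher and 2 lower after 1 day, and 1 was higher and 1 lower at each later duration. The genes behind these counts were Svep1, Sparc and Sparcl1.

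Svep1 encodes a very large secreted adhesion protein that binds integrins and takes part in lymphatic vessel development (ENSMUSG00000028369, chr4:58042442-58206859, minus strand). Its levels in controls were 35.5, 84.6, 32.6, 22.7 and 33.3 CPM, the second mouse far above the others. They were 11.8, 8.78, 8.72, 9.67 and 13.1 CPM after 6 hours, 6.87, 4.57, 8.06, 6.38 and 9.64 after 1 day and 12.1, 11.6, 7.37, 4.46 and 8.65 after 2 days. All of these mice lay below every control. The levels were 7.93, 5.74, 6.05, 7.51 and 7.20 CPM after 3 days, 4.34, 3.10, 5.53, 7.22 and 5.95 after 4 days and 6.01, 7.17, 4.58, 1.57 and 3.78 after 5 days, again with no overlap. Svep1 was 4.03-fold lower after 6 hours and 9.11-fold lower after 5 days. Log2 fold changes were -2.01 ± 0.38 after 6 hours (adjusted p = 0.0025), -2.54 ± 0.40 after 1 day (adjusted p = 0.00084) and -2.22 ± 0.41 after 2 days (adjusted p = 0.0027), then -2.59 ± 0.38 after 3 days (adjusted p = 0.00071), -3.00 ± 0.42 after 4 days (adjusted p = 0.00052) and -3.19 ± 0.48 after 5 days (adjusted p = 0.00086). Leaving out control 2 kept the calls at all 6 durations. With it left out the log2 fold change was -1.59 after 6 hours and -2.76 after 5 days. Its exons share 2244 bases with Gm26889, a noncoding RNA gene on the opposite strand.

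Sparc, the collagen-binding matricellular protein also called osteonectin (ENSMUSG00000018593, chr11:55394500-55423183, minus strand), rose from 1 day on. Controls had 784, 635, 539, 572 and 513 CPM, mice after 6 hours 638, 591, 585, 660.4 and 590.5 CPM and mice after 1 day 761, 772, 592, 978 and 811 CPM. The levels were 885, 971, 920.1, 635 and 888 CPM after 2 days and 1075, 892, 958, 973 and 1155 CPM after 3 days. After 4 days they were 949, 916, 987, 953 and 839.6 CPM and after 5 days 878, 913, 886, 779 and 799.5 CPM. The 3 and 4 day groups lay wholly above the controls. Log2 fold changes were 0.36 ± 0.13 after 1 day (adjusted p = 0.038), 0.49 ± 0.14 after 2 days (adjusted p = 0.014) and 0.74 ± 0.12 after 3 days (adjusted p = 5.6e-05), then 0.61 ± 0.11 after 4 days (adjusted p = 0.00013) and 0.48 ± 0.11 after 5 days (adjusted p = 0.0016). The call at 1 day was lost without control replicate 2, 3, 4 or 5 or 1 day replicate 1, 2, 4 or 5 (log2 fold change 0.28 to 0.38, adjusted p = 0.051 to 0.11). With scaling by library size alone the calls at 1, 2 and 5 days were lost, with log2 fold changes of 0.15, 0.27 and 0.25.

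Sparcl1, a relative of Sparc made mainly by vascular and stromal cells (ENSMUSG00000029309, chr5:104079111-104113733, minus strand), fell early and was not called later. Controls had 116, 124, 103, 136 and 127 CPM. The levels were 87.5, 83.6, 78.9, 82.8 and 81.4 CPM after 6 hours and 81.9, 75.9, 63.6, 80.4 and 58.8 CPM after 1 day, all below the controls. They were 146, 128, 122, 108 and 123 CPM after 2 days, 142, 112, 128, 154 and 127 after 3 days, 129.7, 123, 141, 150.4 and 161 after 4 days and 94.1, 152, 131, 145 and 134 after 5 days, overlapping with controls. Its log2 fold change was -0.57 ± 0.10 after 6 hours (adjusted p = 4.4e-05) and -0.75 ± 0.12 after 1 day (adjusted p = 3.8e-05).

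The other adhesive genes passed the test at no duration against controls. Fn1 (fibronectin) ranged from 6.20 to 30.8 CPM over the 35 mice, and Tnc (tenascin-C) from 0.436 to 13.1 CPM, with control 1 the highest control for both at 30.8 and 11.4 CPM. Postn (periostin) ranged from 30.3 to 64.4 CPM and Tnxb (tenascin-X) from 0.654 to 5.33 CPM. Thbs1 (thrombospondin-1) had enough counts in too few libraries to be tested against controls. Over all 7 groups it passed the filter only through cold-exposed mice with high levels. Its F test (adjusted p = 0.0022) thus rests on the mice that let the gene in and is no support for a difference. Thbs2 (thrombospondin-2) had at most 12 counts in any library.

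The small leucine-rich proteoglycans diverged. Dcn (decorin) was lower from 1 day on, Lum (lumican) was lower after 1 day, and Bgn (biglycan) was higher after 3 and 4 days. None of the 3 tested was called after 6 hours, 2 were lower after 1 day, 1 was lower after 2 days, 1 was higher and 1 lower after 3 and after 4 days, and 1 was lower after 5 days.

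Bgn (ENSMUSG00000031375, chrX:73483602-73495933, plus strand), which binds collagen and can act as a danger signal when released, had 25.4, 19.9, 23.0, 17.7 and 25.0 CPM in controls, 24.9, 15.5, 19.5, 21.0 and 17.9 after 6 hours and 20.1, 26.5, 17.9, 29.9 and 24.1 after 1 day. Its levels were 36.8, 43.4, 24.1, 21.3 and 27.1 CPM after 2 days and 56.0, 28.9, 63.2, 43.0 and 40.9 CPM after 3 days, the latter wholly above the controls. They were 41.4, 42.4, 40.6, 22.3 and 27.6 CPM after 4 days and 38.9, 31.3, 15.9, 30.8 and 49.6 CPM after 5 days. The gene was 2.10-fold higher after 3 days, and log2 fold changes were 1.07 ± 0.18 after 3 days (adjusted p = 0.00028) and 0.65 ± 0.17 after 4 days (adjusted p = 0.0068).

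Lum (ENSMUSG00000036446, chr10:97565128-97572703, plus strand), a regulator of collagen fibril thickness, had 21.0, 9.68, 15.4, 16.3 and 14.8 CPM in controls, 19.4, 13.2, 11.2, 14.9 and 7.77 after 6 hours and 8.17, 7.08, 4.83, 4.85 and 6.20 after 1 day. After 2 days its levels were 13.1, 16.0, 8.45, 5.25 and 10.7 CPM and after 3 days 23.1, 13.7, 19.2, 18.5 and 22.1 CPM. They were 21.3, 27.4, 20.6, 10.2 and 7.03 CPM after 4 days and 12.2, 12.8, 7.19, 10.0 and 13.9 CPM after 5 days. Only the 1 day group did not overlap with controls, and it was 2.47-fold lower (log2 fold change -1.31 ± 0.21, adjusted p = 5.9e-05).

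Dcn (ENSMUSG00000019929, chr10:97479609-97518143, plus strand), a binder of collagen fibrils and TGF-beta, had 238, 255, 308, 274 and 280.3 CPM in controls, 249.6, 262, 244, 236 and 203 after 6 hours and 219.7, 231, 232, 189.9 and 187 after 1 day. Levels were 136, 218, 180.0, 167 and 245 CPM after 2 days and 241, 208, 211, 226 and 244 CPM after 3 days. After 4 days they were 221, 228, 182, 190.1 and 198 CPM and after 5 days 175, 213, 172, 224 and 266 CPM. Mice at 1 and 4 days lay below every control. The log2 fold change was -0.36 ± 0.11 after 1 day (adjusted p = 0.011), -0.53 ± 0.14 after 2 days (adjusted p = 0.0075) and -0.26 ± 0.10 after 3 days (adjusted p = 0.0497), and -0.42 ± 0.10 after 4 days (adjusted p = 0.0018) and -0.38 ± 0.12 after 5 days (adjusted p = 0.014). The call at 3 days was lost without control replicate 2, 3, 4 or 5 or 3 day replicate 1, 2, 3 or 4 (log2 fold change -0.28 to -0.21, adjusted p = 0.052 to 0.12), and that at 5 days without 5 day replicate 3 (log2 fold change -0.30, adjusted p = 0.051). Fmod (fibromodulin) had at most 11 counts in any library and none in 18 of 35.

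Among proteases and inhibitors, the inhibitor Timp3 fell and the protease Adamts1 rose, although Timp3 was higher at 6 hours. Of 5 tested, 2 were higher and 1 lower after 6 hours, 1 higher and 1 lower after 1 day, 1 lower after 2 days, 2 higher against 1 lower at 3 days, and 1 in each direction at 4 and at 5 days.

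Timp3, a matrix-bound inhibitor of metalloproteases including those of the ADAM family (ENSMUSG00000020044, chr10:86300372-86349506, plus strand), had the smallest p of the 39 genes over the 7 groups (adjusted p = 8e-17, edgeR F test). Controls had 192, 227, 238, 266 and 272 CPM and mice after 6 hours 279, 323, 282, 287 and 295 CPM, all above the controls. The levels were 174, 173, 170.3, 178 and 138 CPM after 1 day, 128, 118, 115, 126 and 131 after 2 days and 177, 151, 148, 128 and 135 after 3 days. They were 137, 134, 120.1, 126 and 126 CPM after 4 days and 105, 117, 84.5, 82.5 and 114 CPM after 5 days. From 1 day on every cold-exposed mouse was below every control. Timp3 was 1.95-fold lower after 2 days and 2.39-fold lower after 5 days. Log2 fold changes were 0.27 ± 0.10 after 6 hours (adjusted p = 0.033), -0.53 ± 0.11 after 1 day (adjusted p = 0.0012) and -0.96 ± 0.11 after 2 days (adjusted p = 5.3e-06), then -0.69 ± 0.11 after 3 days (adjusted p = 8.6e-05), -0.90 ± 0.10 after 4 days (adjusted p = 5.1e-07) and -1.26 ± 0.12 after 5 days (adjusted p = 3.3e-08). The call at 6 hours was lost without control replicate 1, 2 or 3 or 6 hour replicate 2 (log2 fold change 0.21 to 0.27, adjusted p = 0.052 to 0.098), and with scaling by library size alone (log2 fold change 0.08, adjusted p = 0.56). Its exons share 1733 bases with Syn3, a synapsin gene on the opposite strand.

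Adamts1, a secreted protease that cuts the proteoglycans versican and aggrecan (ENSMUSG00000022893, chr16:85793827-85803113, minus strand), rose early. Controls had 13.1, 14.5, 7.39, 7.39 and 9.41 CPM, mice after 6 hours 13.9, 32.8, 24.6, 33.7 and 45.1 CPM and mice after 1 day 40.7, 23.3, 31.7, 41.6 and 27.6 CPM. After 2 days its levels were 20.8, 16.0, 12.9, 7.09 and 11.8 CPM and after 3 days 11.2, 19.1, 10.7, 11.0 and 12.3 CPM. At 1 day all mice stood above the controls, and at 6 hours 4 of 5 did. Levels were 14.6, 13.1, 17.6, 14.8 and 19.7 CPM after 4 days and 14.6, 14.1, 17.0, 15.3 and 16.7 CPM after 5 days. Adamts1 was 2.88-fold higher after 6 hours and 3.17-fold higher after 1 day. Log2 fold changes were 1.53 ± 0.31 after 6 hours (adjusted p = 0.0022) and 1.67 ± 0.21 after 1 day (adjusted p = 8.1e-06), and 0.62 ± 0.19 after 4 days (adjusted p = 0.014) and 0.58 ± 0.19 after 5 days (adjusted p = 0.017). The calls at 4 and 5 days were lost without control replicate 4 (log2 fold change 0.51, adjusted p = 0.053 after 4 days and log2 fold change 0.47, adjusted p = 0.065 after 5 days).

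Mmp14, the membrane-anchored metalloprotease that activates pro-MMP2 (ENSMUSG00000000957, chr14:54431612-54445364, plus strand), had 9.83, 7.16, 6.09, 8.21 and 7.24 CPM in controls and 6.02, 4.62, 5.59, 5.19 and 4.25 CPM after 6 hours, the latter all below the controls. After 1 day it had 6.87, 5.71, 7.88, 6.64 and 3.90 CPM, after 2 days 14.6, 16.2, 6.11, 7.61 and 11.8 and after 3 days 12.8, 8.62, 15.1, 14.6 and 8.48. The levels were 12.5, 10.2, 8.64, 9.42 and 7.03 CPM after 4 days and 7.95, 7.82, 5.01, 10.2 and 20.3 CPM after 5 days. On the log2 scale it differed from controls by -0.62 ± 0.21 after 6 hours (adjusted p = 0.019) and 0.64 ± 0.20 after 3 days (adjusted p = 0.019). The call at 6 hours was lost without control replicate 1 or 6 hour replicate 5 (log2 fold change -0.54 to -0.51, adjusted p = 0.055 to 0.065), and that at 3 days without 3 day replicate 3 or 4 (log2 fold change 0.54 to 0.56, adjusted p = 0.054 to 0.06).

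Timp2 was called after 3 days alone among the comparisons with controls (log2 fold change 0.37 ± 0.14, adjusted p = 0.041), and the call was lost without control replicate 2, 4 or 5 or 3 day replicate 1, 3 or 4 (log2 fold change 0.26 to 0.39, adjusted p = 0.055 to 0.11). Mmp2, the gelatinase that Timp2 helps to activate and to inhibit, was called at no duration and ranged from 4.59 to 21.2 CPM. Timp1 had enough counts in too few libraries to be tested against controls. Over all 7 groups it passed the filter only through cold-exposed mice with high levels. Its edgeR F test (adjusted p = 0.0045) thus rests on the mice that let the gene in and is no support for a difference. Mice of one group also differed widely, as given below.

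**Figure D3:**
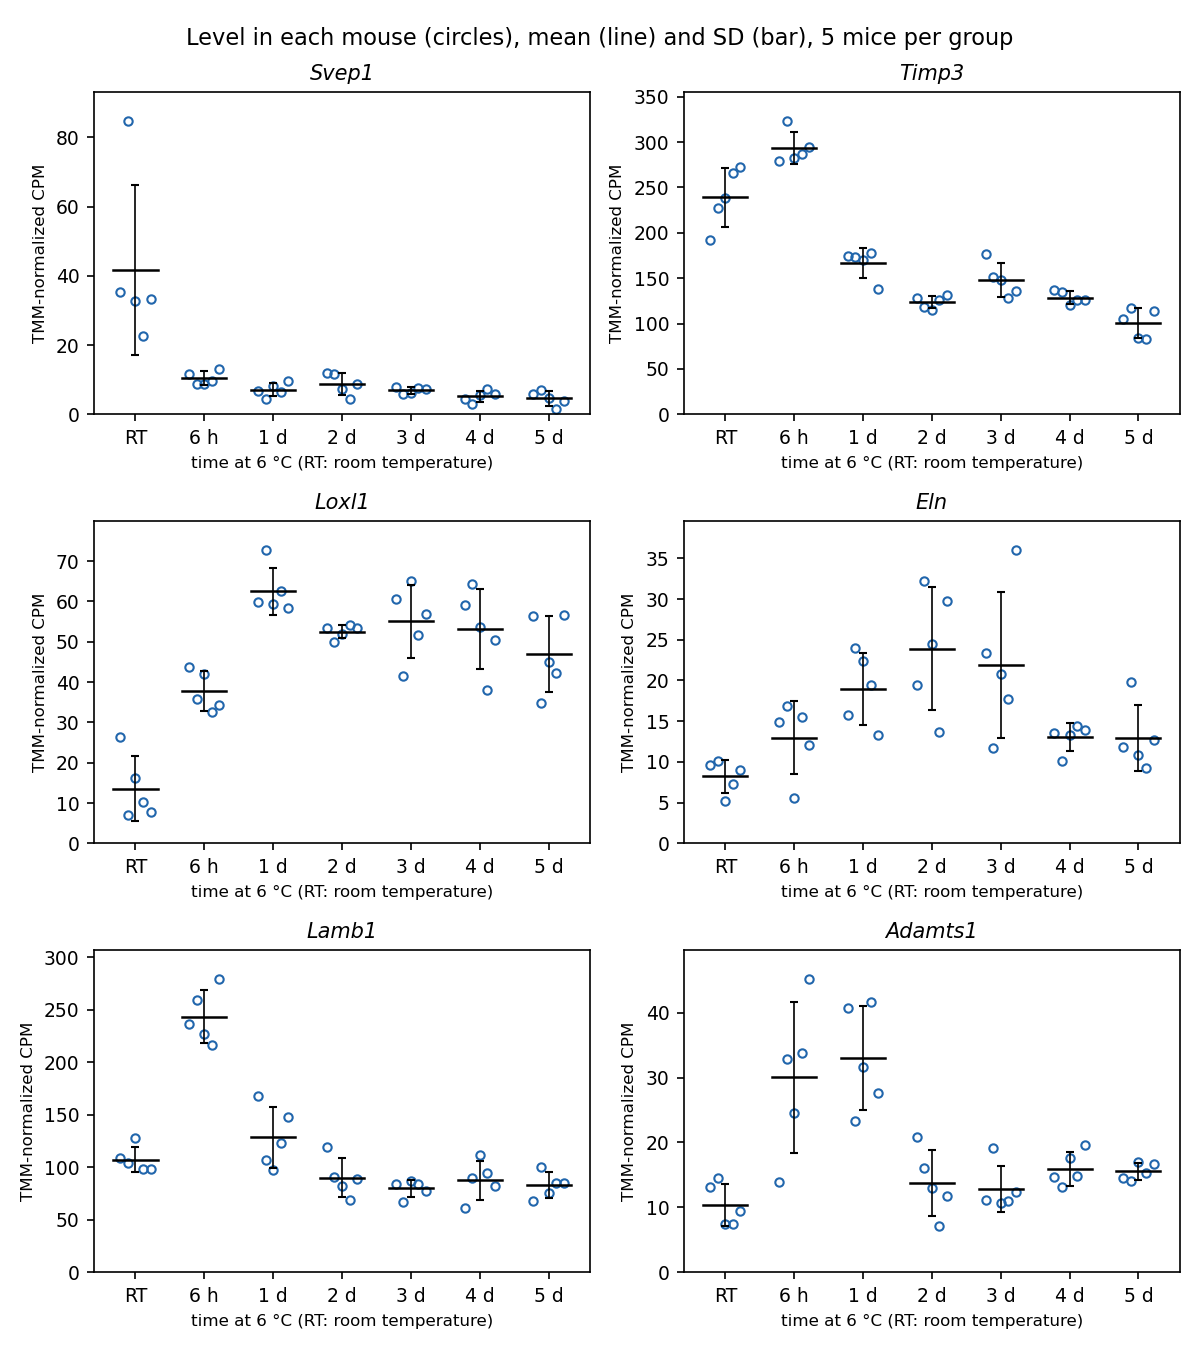
TMM-normalized CPM (vertical axes, from 0) of 6 matrix genes in each mouse (circles) by time at 6 °C (horizontal axes, with RT for room temperature), with the mean as a line and the SD as a bar, 5 mice per group. Svep1 and, from 1 day on, Timp3 lie below all controls, Loxl1 lies above them at every duration, and Lamb1 is highest in the 5 mice at 6 hours.

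Of the 98 calls of a matrix gene in a comparison, 64 held under every setting tried. With scaling by library size alone 21 calls were lost, with adjusted p between 0.0546 and 0.56. Beside Sparc, Lamc1 and Timp3 as given above, these were Eln after 6 hours, Fbn1, Fbln2, Fbln5, Mmp14 and Timp2 after 3 days, Loxl2, Bgn, Hspg2 and Adamts1 after 4 days, Lox, Eln, Fbn1 and Adamts1 after 5 days, and Svep1 between 6 hours and 3 days. With all 7 groups in one model, which gives them a common spread, 19 calls were lost, with adjusted p between 0.054 and 0.177. They were Eln, Fbn1 and Mmp14 after 6 hours, Dcn, Hspg2, Mmp14 and Timp2 after 3 days, Loxl2, Loxl3, Eln, Hspg2 and Adamts1 after 4 days, Eln, Fbn1 and Adamts1 after 5 days, Svep1, Lum and Lama4 between 6 hours and 3 days, and Lum between 3 and 5 days.

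Between 6 hours and 3 days of cold, a comparison without the control mice, 15 of 33 matrix genes were higher and 4 lower after 3 days, against 17.5% and 15.7% of all genes tested, with a median log2 fold change of 0.55 (all genes, 0.00). All 4 lysyl oxidases tested rose, by 1.17 ± 0.22 for Lox (adjusted p = 0.00025), 0.58 ± 0.13 for Loxl1 (0.0011), 0.83 ± 0.22 for Loxl2 (0.006) and 1.39 ± 0.33 for Loxl3 (0.0018) on the log2 scale. Of the elastic fibre genes Fbn1 (1.23 ± 0.20, adjusted p = 6e-05), Fbln5 (0.87 ± 0.23, 0.0052) and Fbln2 (0.82 ± 0.18, 0.0008) rose. Bgn (1.27 ± 0.19, adjusted p = 4.1e-05), Mmp14 (1.26 ± 0.22, 0.00011), Sparc (0.75 ± 0.10, 2.5e-06), Sparcl1 (0.71 ± 0.10, 9.6e-06) and Lamc1 (0.55 ± 0.13, 0.0021) rose as well. The 4 that fell were Lamb1 (-1.57 ± 0.11, adjusted p = 7e-11), Adamts1 (-1.21 ± 0.28, 0.005), Timp3 (-0.96 ± 0.10, 1.2e-07) and Svep1 (-0.57 ± 0.20, 0.03). Lum, Lama4 and Nid1 rose by 0.58 ± 0.20 (adjusted p = 0.027), 0.31 ± 0.12 (0.043) and 0.36 ± 0.12 (0.024).

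Several of these calls were lost when 1 mouse was left out. Svep1 was lost without 6 hour replicate 1 or 5 or 3 day replicate 2 or 3 (log2 fold change -0.54 to -0.48, adjusted p = 0.064 to 0.099), and Lum without 6 hour replicate 2, 3 or 5 or 3 day replicate 1 or 5 (log2 fold change 0.42 to 0.58, adjusted p = 0.053 to 0.092). Lama4 was lost without 6 hour replicate 2, 3, 4 or 5 or 3 day replicate 1, 2, 3 or 5 (log2 fold change 0.25 to 0.32, adjusted p = 0.053 to 0.13), and Nid1 without 6 hour replicate 3, 4 or 5 or 3 day replicate 1 (log2 fold change 0.30 to 0.32, adjusted p = 0.065 to 0.077).

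From 3 to 5 days none of 34 matrix genes was called higher and 2 were called lower, against 1.50% and 1.22% of all genes. At an unadjusted p below 0.05 in edgeR the counts were 0 higher and 15 lower. The share over all genes was not taken at that threshold, so these 2 counts cannot be read as a result about the matrix genes. DESeq2 called 0 matrix genes higher and 5 lower. Over all genes it called 320 higher and 239 lower, where edgeR called 158 and 129. Timp3 fell by a further 0.58 ± 0.12 on the log2 scale (adjusted p = 0.014), with all 5 day mice below all 3 day mice, and Lum fell by 0.80 ± 0.19 (adjusted p = 0.027). The fitted change was negative for 30 of the 34, with a median of -0.36, while 51.6% of all genes tested were negative and their median was -0.01. The call of Timp3 was lost without 3 day replicate 1 or 5 day replicate 4 (log2 fold change -0.51 to -0.50, adjusted p = 0.059 to 0.063), and that of Lum without 3 day replicate 1, 3 or 5 or 5 day replicate 3 or 4 (log2 fold change -0.79 to -0.67, adjusted p = 0.053 to 0.094).

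At 2, 3 and 4 days, mice of one group differed widely in some matrix genes. The genes of this paragraph were chosen after their values had been seen. Timp1, a soluble inhibitor that many cells induce on injury, had 1.35, 0.775, 0.217, 0.164 and 0.543 CPM in controls, 0, 0, 0.224, 0.236 and 1.29 after 6 hours and 1.49, 0.457, 0, 1.28 and 2.53 after 1 day. Its levels were 18.2, 11.1, 0.539, 0.788 and 0.865 CPM after 2 days, 10.3, 1.03, 15.8, 7.90 and 0.514 after 3 days, 3.97, 4.13, 2.25, 0.200 and 0.180 after 4 days and 1.72, 2.39, 0.871, 2.55 and 5.38 after 5 days. Mice 1 and 2 at 2 days, mice 1, 3 and 4 at 3 days and mice 1, 2 and 3 at 4 days were high, and the others of these groups stayed near the controls. Cd68, 1 of 5 macrophage markers and no matrix gene, had 24.6, 11.1, 3.42, 2.10 and 6.63 CPM after 2 days, 28.0, 5.95, 23.7, 27.5 and 6.43 after 3 days and 17.0, 13.6, 14.7, 2.61 and 2.52 after 4 days, with the same mice high. The other macrophage markers are not given by mouse here, so these values are those of Cd68 alone. Top2a, a marker of dividing cells, had 29.4, 19.2, 5.03, 1.84 and 5.19 CPM in the 2 day mice, 19.1, 12.1, 17.3, 25.0 and 13.9 in the 3 day mice and 18.6, 32.5, 30.7, 8.02 and 10.1 in the 4 day mice.

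Of the 39 matrix genes, 20 were higher in both of mice 1 and 2 than in the other 3 mice at 2 days, and 0 were lower in both. For mice 1, 3 and 4 at 3 days these counts were 14 and 3, and for mice 1, 2 and 3 at 4 days 13 and 3. The mice were singled out by such values, those of Timp1 among them, and Timp1 is 1 of the 39. The counts are thus a description with no test, and the same counts over all genes were not taken. Dcn went the other way in mouse 1 at 2 days, at 136 CPM against 167 to 245 CPM in mice 2 to 5. Thbs1, an adhesive protein that activates latent TGF-beta, had 0.578, 0.775, 0.652, 1.15 and 0.362 CPM in controls, 8.14, 4.87, 1.08, 1.84 and 1.15 CPM after 2 days and 4.67, 1.23, 6.58, 2.12 and 3.08 CPM after 3 days. Loxl3 had 7.99, 7.42, 3.42, 0.788 and 1.44 CPM after 2 days and 7.93, 3.49, 9.96, 6.36 and 4.63 after 3 days, and Tnc 13.1, 11.1, 3.42, 1.84 and 1.44 CPM after 2 days. Mice 1 and 2 were the highest of the 2 day group for Thbs1, Loxl3, Tnc and Mmp14. Hspg2 had 145, 125, 76.6, 57.8 and 80.2 CPM after 2 days, with mice 1 and 2 the highest again. The part of macrophages or dividing cells in these values was not tested.

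At 2 and 4 days the mice with high Timp1 also had lower shares of mitochondrial RNA. At 2 days mitochondrial genes took 34.6% and 38.0% of libraries 1 and 2 and 41.8% to 43.4% of the others. At 4 days they took 36.6%, 35.0% and 38.2% of libraries 1, 2 and 3 against 40.2% and 42.3%. At 3 days the shares were 35.0%, 34.7% and 38.2% in libraries 1, 3 and 4 against 37.9% and 41.3%, which overlap. The matrix genes took 0.252% and 0.249% of libraries 1 and 2 at 2 days and 0.141% to 0.192% of the others. With mitochondrial genes and Gm42418 left out of the counts, 1 of the 98 calls of a matrix gene was lost, that of Dcn after 3 days. The part of RNA composition in the spread between mice was not tested. Without mouse 1 the 2 day comparison called 6 matrix genes higher and 5 lower, and without mouse 2 it called 6 higher and 6 lower.

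**Figure D4:**
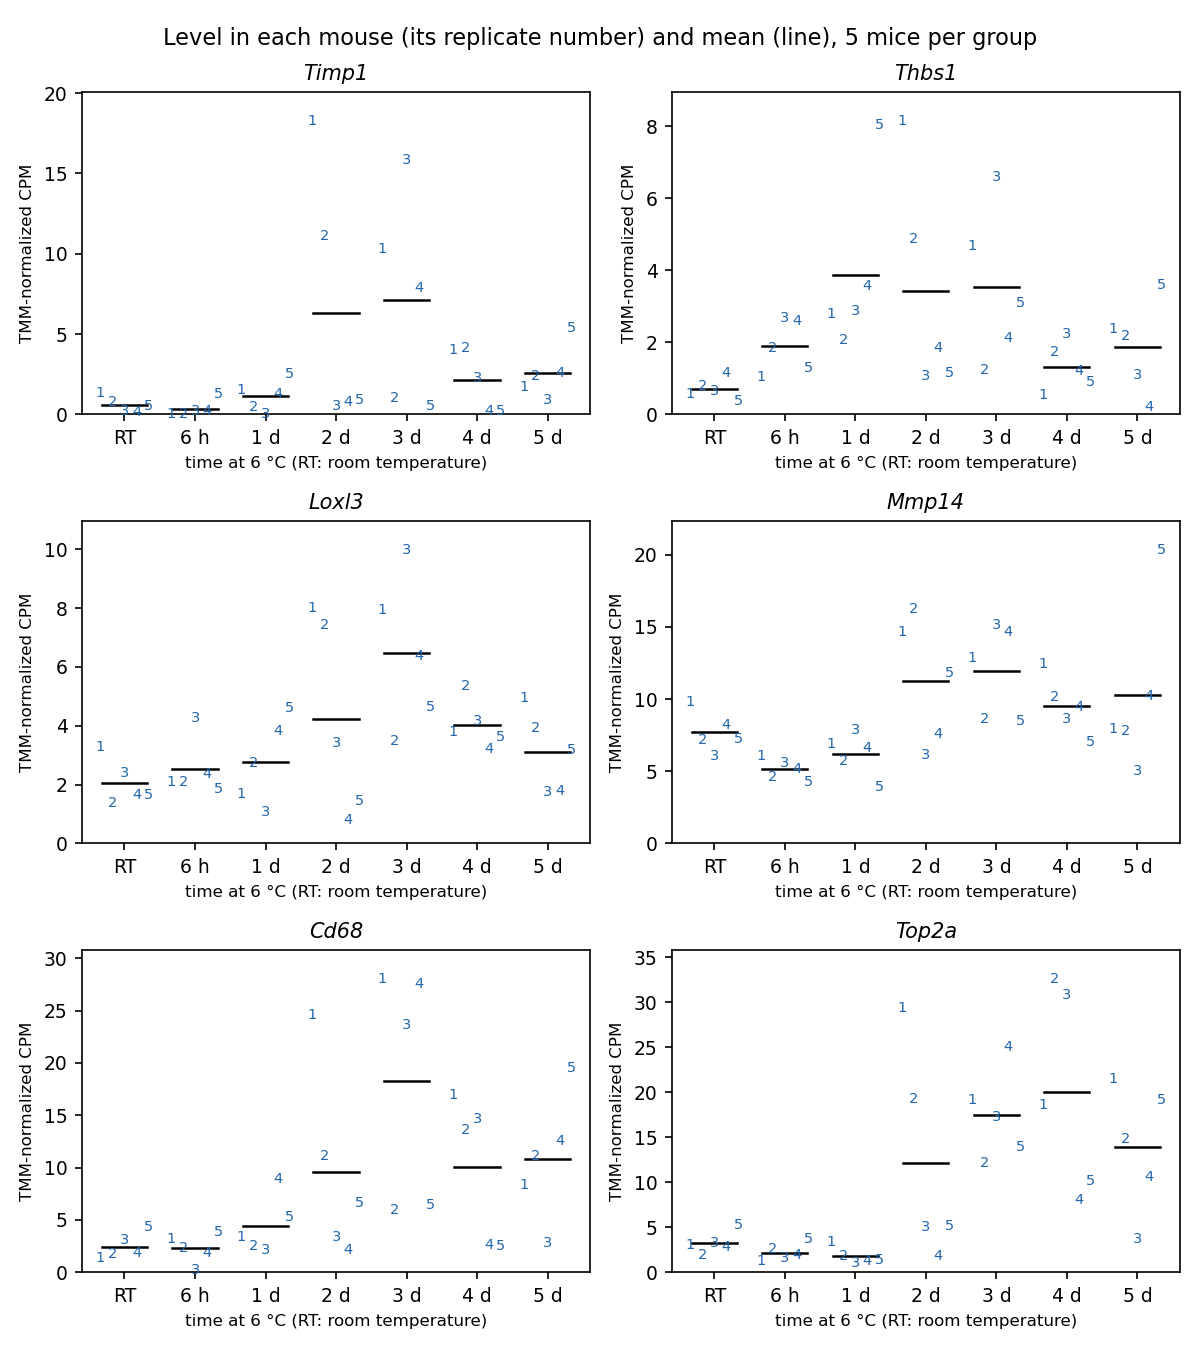
TMM-normalized CPM (vertical axes, from 0) of 4 matrix genes, the macrophage marker Cd68 and the cell division marker Top2a, with each mouse drawn as its replicate number and the group mean as a line, by time at 6 °C (RT for room temperature). At 2 days mice 1 and 2 are the highest in all 6 panels, with Timp1 at 18.2 and 11.1 CPM against 0.539 to 0.865 CPM in the other 3.

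The related genes of 4 lists moved in both directions too, and the shares that differed over the 7 groups were 78.1%, 57.7%, 70.0% and 70.6% in the order given here, against 59.8% of all genes. The shares over all genes in single comparisons are those given with the counts of matrix genes, for example 21.8% higher and 21.1% lower after 6 hours. Of 39 other matrix glycoproteins and proteoglycans, 5 of 29 tested were higher and 9 lower after 6 hours, 4 and 10 of 28 after 1 day, 7 and 5 of 29 after 3 days, and 4 and 9 of 29 after 5 days, and 25 of 32 differed over the 7 groups. Tinagl1, a tubulointerstitial nephritis antigen-like basement membrane protein, rose from 60.2 ± 7.10 CPM in controls to 185 ± 36.5 CPM after 6 hours (SD, n = 5, log2 fold change 1.60 ± 0.13, adjusted p = 1.9e-09) and was 1.05 higher on the log2 scale after 5 days (adjusted p = 2e-07). Npnt, nephronectin, an integrin ligand of basement membranes, had 0.730 ± 0.232 CPM in controls and 9.68 ± 1.79 CPM after 5 days (log2 fold change 3.70 ± 0.31). Controls were near the limit of detection, so Npnt passed the expression filter of that comparison through the 5 day mice. Its p-value is therefore not given, and the fold change rests on few control counts. Smoc2, a matricellular relative of Sparc, fell from 34.6 ± 5.38 CPM in controls to 12.9 ± 3.77 CPM after 1 day (log2 fold change -1.44 ± 0.17, adjusted p = 2.2e-06).

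Of 29 other matrix proteases and inhibitors, 6 of 21 tested were higher and 3 lower after 6 hours, 8 and 2 of 23 after 3 days, and 4 and 2 of 21 after 5 days, and 15 of 26 differed over the 7 groups. Adam12, a metalloprotease of stromal cells, rose from 15.3 ± 4.50 CPM in controls to 84.8 ± 7.50 CPM after 6 hours (log2 fold change 2.45 ± 0.16, adjusted p = 3.2e-10) and was still 1.90 higher on the log2 scale after 5 days (adjusted p = 1.1e-08). Adamts9, a relative of Adamts1, was also higher after 6 hours (1.16 ± 0.12, adjusted p = 7.7e-08) and after 1 day (0.96 ± 0.14, adjusted p = 1.8e-05), with 19.0 ± 2.64 CPM in controls and 42.9 ± 3.35 CPM after 6 hours. Timp4, a TIMP like Timp3, was 0.40 ± 0.10 higher after 6 hours on the log2 scale (adjusted p = 0.0032), and by 5 days it had fallen from 53.6 ± 6.23 to 13.1 ± 5.67 CPM (-2.03 ± 0.22, adjusted p = 4.2e-06).

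Of 25 matrix receptors, 3 of 15 tested were higher and 6 lower after 6 hours, 7 and 1 of 16 after 3 days, and 3 and 4 of 16 after 5 days, and 14 of 20 differed over the 7 groups. Sdc4, the syndecan of focal adhesions, rose from 41.7 ± 11.6 CPM in controls to 243 ± 38.3 CPM after 6 hours (log2 fold change 2.52 ± 0.18, adjusted p = 8e-08). Itga1, a collagen-binding integrin chain, fell from 152 ± 10.8 to 85.6 ± 10.1 CPM (-0.85 ± 0.10, adjusted p = 3.4e-07). Itga7, a laminin-binding integrin chain, was lower after 5 days (-0.77 ± 0.14, adjusted p = 0.00016), at 17.0 ± 2.29 CPM against 28.8 ± 5.02 CPM.

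Of 20 TGF-beta and CCN regulators, which control transcription of many matrix genes, 6 of 17 tested were higher and 5 lower after 6 hours, 7 and 4 of 17 after 1 day, 6 and 3 of 16 after 3 days, and 1 and 2 of 16 after 5 days, and 12 of 17 differed over the 7 groups. Smad3, which carries the TGF-beta signal to the nucleus, rose from 12.4 ± 2.90 CPM in controls to 78.2 ± 21.9 CPM after 1 day (log2 fold change 2.65 ± 0.20, adjusted p = 9.7e-08). Tead1, the DNA-binding partner of YAP and TAZ, rose from 29.7 ± 8.46 to 61.4 ± 9.35 CPM after 2 days (1.03 ± 0.17, adjusted p = 0.00022). Tgfbr3, the co-receptor betaglycan, fell to 24.9 ± 1.85 CPM after 5 days from 49.7 ± 8.50 CPM (-1.01 ± 0.13, adjusted p = 1.5e-06).

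Marker genes of cells that make matrix moved as well. All 6 endothelial markers were detected in every mouse, and their summed levels were 240.1 to 299 CPM in controls, 416 to 501 after 6 hours and 483 to 565 after 1 day, and 220.1 to 376 after 5 days. After 6 hours 2 of the 6 were higher and 1 lower, and after 1 day 4 of 5 tested were higher and none lower. For 6 markers of smooth muscle cells and pericytes the sums were 345 to 381 CPM in controls, 283 to 338 after 6 hours and 232 to 266 after 1 day, sums to which Rgs5 contributed most. These markers went both ways at first, with Acta2 and Tagln higher and Rgs5 lower after 6 hours and after 1 day (log2 fold changes 0.76, 0.86 and -0.40 after 6 hours). After 5 days 5 of the 6 were lower and none higher, with a sum of 213 to 276 CPM.

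Summed over the 3 markers of all adipose stromal cells (Pdgfra, Cd34 and Ly6a), levels were 59.1 to 77.4 CPM in controls, 69.9 to 94.2 after 6 hours and 89.7 to 187 after 3 days, when 1 of the 3, Ly6a, was higher. The sums of 3 markers of the ASC1 subtype were 30.9 to 39.1 CPM in controls and 45.8 to 60.1 CPM after 3 days, when 2 of 3 were higher. For the 2 markers of ASC2 the ranges were 6.20 to 10.6 and 6.36 to 11.4 CPM, and for the 2 of ASC3 2.63 to 5.25 and 4.20 to 6.68 CPM, with none called at 3 days. Macrophage markers (5 genes) summed to 44.9 to 104 CPM in controls and 81.9 to 215 CPM after 3 days, when 3 of 5 were higher. Markers of dividing cells (3 genes) summed to 3.29 to 6.15 CPM and 17.6 to 40.6 CPM, and the 2 of them tested were higher.

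The 4 Schwann cell markers summed to 136 to 204 CPM in controls and 238 to 423 CPM after 3 days, when S100b, which adipocytes also express, was higher and the other 2 tested were not called. Brown adipocyte markers (6 genes) summed to 12053 to 15664 CPM in controls, 17257 to 24001 after 6 hours, 16640.3 to 22094 after 1 day, 12784 to 16779.9 after 3 days and 15518 to 19436 after 5 days. After 3 days 2 of the 6 were higher (Ucp1, log2 fold change 1.54, and Ppargc1a, 1.13) and 1 was lower (Adipoq, -1.29). Skeletal muscle markers (5 genes) summed to 56.7 to 729 CPM in controls and 2.31 to 381 CPM after 3 days, with none of the 5 called in any comparison. The 4 lymphocyte markers summed to at most 3.48 CPM and the 3 mesothelial markers to at most 5.20 CPM in any mouse. The part of these cell types in the changes of the matrix genes was not tested.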

How the data were processed

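RNA from 1 iBAT pad of each of 35 mice was made into QuantSeq 3′ libraries. The authors aligned the reads with STAR (2.6.1d) to GRCm38 and counted them per gene with HTSeq (0.11.2), and the deposited values are raw counts that were not normalized. The table names genes by Ensembl identifier. Symbols came from a table of gene names, in which 267 identifiers had none and all 39 members were found, and positions of genes were taken from GENCODE M21 for the same build.

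Each comparison was fitted on its own 10 libraries with edgeR (4.0.16, R 4.3.3), using the default expression filter, TMM factors, robust quasi-likelihood dispersions and glmQLFTest over all genes left. The F test over 7 groups used all 35 libraries. All p-values were two-sided and were adjusted by Benjamini-Hochberg over all genes tested, and a gene was called at an adjusted p below 0.05. Each n is a number of mice. Levels are TMM-normalized CPM over all 35 libraries, with SD over mice. The steps were tested on simulated counts with known changes. Alternatives were DESeq2 (1.42.0), RLE factors, library size alone, a count table without mitochondrial genes and Gm42418, no filter, a stricter filter (10 counts), one fit of all groups, the replicate number as a block, and leaving out each mouse in turn. Values per mouse are given for the 3 members of each role with the smallest adjusted p in the F test, fold changes for every member called, and for each related list the 3 genes with the smallest adjusted p. The members and lists were chosen with earlier results of these data known. Motifs were counted in RefSeq promoter windows of GRCm38.p6.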

Additional observations from a re-analysis of the deposited data

Results flagged for a closer look

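In 17 of the 238 groups of 5 mice tested, 1 mouse stood far from the other 4 by Dixon's criterion at the 95% level, or 7.14% of groups, where chance gives about 1 in 20. These values came from 14 mice. Among adhesive genes, 1 day replicate 5 was high for Fn1 (15.6 CPM) and Thbs1 (8.04 CPM), control replicate 2 was high for Svep1 (84.6 CPM) and control replicate 1 for Tnc (11.4 CPM). Tnc was also high in 3 day replicate 3 (9.96 CPM), Tnxb was low in 4 day replicate 4 (1.00 CPM) and Sparc was low in 2 day replicate 4 (635 CPM). Loxl3 was high in 6 hour replicate 3 (4.25 CPM), and Eln was low in 4 day replicate 2 (10.2 CPM). Mfap5 was low in 6 hour replicate 5 (6.47 CPM) and high in 5 day replicate 5 (18.5 CPM). Among basement membrane genes, Lama2 was high in 1 day replicate 3 (7.52 CPM), Nid1 in 1 day replicate 2 (62.6 CPM), and Lamc1 was low in 5 day replicate 4 (46.4 CPM). Adamts1 was high in 3 day replicate 2 (19.1 CPM), Timp1 in 6 hour replicate 5 (1.29 CPM), and Timp3 was low in 1 day replicate 5 (138 CPM).

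The responses at 3 days and at 6 hours differed for 19 matrix genes in the direct comparison of both groups with edgeR. The log2 difference, 3 days minus 6 hours, was 1.39 for Loxl3, 1.27 for Bgn, 1.26 for Mmp14, 1.23 for Fbn1, 1.17 for Lox, 0.87 for Fbln5, 0.83 for Loxl2 and 0.82 for Fbln2. It was 0.75 for Sparc, 0.71 for Sparcl1, 0.58 for both Lum and Loxl1, 0.55 for Lamc1, 0.36 for Nid1 and 0.31 for Lama4. It was negative for Lamb1 (-1.57), Adamts1 (-1.21), Timp3 (-0.96) and Svep1 (-0.57). Between 3 and 5 days the difference passed the test for Lum (-0.80) and Timp3 (-0.58).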

How the results depend on the processing

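Of the 98 calls of a matrix gene in a comparison, none changed sign under any setting, 72 held without each mouse in turn, 68 held under every other setting and 64 under both. Scaling by library size alone ended 21 calls, one fit of all groups 19, no filter 4, the replicate block 2 (Dcn after 3 days and Lama4 between 6 hours and 3 days), DESeq2 1, leaving out mitochondrial genes and Gm42418 1, and RLE factors and the stricter filter none. The causes were not tested. With library size alone the counts were 3 higher and 9 lower after 6 hours (5 and 5 with TMM), 11 lower after 1 day (6), 9 higher after 3 days (15), 5 higher after 4 days (10), and 2 higher against 9 lower at 5 days (7 and 5). All genes moved towards lower with that scaling too, by the counts given in the Results. With one fit they were 3 lower after 6 hours, 5 higher after 4 days, 4 higher after 5 days and 1 lower between 3 and 5 days (2). Over all genes one fit called 2070 lower after 6 hours (2234 in the main fit) and 2197 higher after 4 days (2122). It called 2300 higher after 5 days (2169) and 121 lower between 3 and 5 days (129). Without a filter 10 were higher after 2 days (6) and 8 lower between 3 and 5 days, and DESeq2 called 5 lower there. Over all genes, 284 without a filter and 239 with DESeq2 were lower between 3 and 5 days, against 129 in the main fit. After 2 days 1908 of all genes were higher without a filter, against 1739 in the main fit.

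Leaving out 1 mouse gave 3 to 6 genes higher after 6 hours (3 without control replicate 3 or 6 hour replicate 2) and 3 to 6 lower (3 without control replicate 1). It gave 6 to 10 higher after 2 days (10 without 2 day replicate 4) and 3 to 7 higher after 5 days (3 without control replicate 4). Over all genes the named fits called 2184 and 2108 higher (2305 in the main fit) and 2149 lower (2234) after 6 hours. They called 1760 higher after 2 days (1739) and 1902 higher after 5 days (2169). The ranges have no such counts beside them. Between 3 and 5 days it gave 0 to 6 lower. None was lower without 3 day replicate 1 or 5 day replicate 4, 1 without 3 day replicate 3 or 5 or 5 day replicate 3, 5 without 5 day replicate 1, and 6 without 3 day replicate 2. Over all genes these 7 fits, in the same order, called 39, 36, 59, 116, 65, 204 and 144 lower. The main fit called 129, so the number of calls over all genes changed as well.

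Whether replicate numbers pair the mice is not stated, and the mice were treated as unpaired. Deviations of same-numbered mice had correlations from -0.25 to 0.26 (median -0.01), with 16 of 105 over 0.1. Differently numbered mice were not compared, so these values do not settle whether mice were paired. With the replicate block, 24 genes differed over the 7 groups, as without it. The counts higher and lower with the replicate block were 5 and 5 after 6 hours, 5 and 6 after 1 day, 6 and 5 after 2 days, 15 and 3 at 3 days, 10 and 5 at 4 days, and 8 and 6 at 5 days, then 14 and 4 between 6 hours and 3 days and 0 and 3 between 3 and 5 days. Over all genes, in the same order, they were 2329 and 2287, 1885 and 1799, 1549 and 1371, and 1802 and 1537. The later ones were 1925 and 1892, 2114 and 1944, 1637 and 1432, and 86 and 84. Depth limits the lowest genes, since 1 read is worth up to 0.260 CPM and Thbs2, Loxl4, Mfap2, Mfap4 and Fmod could not be tested.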
